A study of Mus musculus with 4 samples.

Results

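The expression of 10 circadian clock genes was examined in mouse articular cartilage, in 4 RNA-seq libraries. The genes were chosen by name, as Arntl (also called Bmal1), Clock, Per1, Per2, Per3, Cry1, Cry2, Nr1d1, Nr1d2 and Dbp, and all 10 were found among the 24532 genes of the deposited table. The libraries came from male wild type C57BL/6 mice and held sham or injured cartilage, each from young and from adult animals. Young mice were 3 weeks old. The age of the adult mice is given as 12 weeks in the sample titles and as 14 weeks in their age field, and the published methods give a lower age than either. Injured cartilage was taken 3 days after a full-thickness needle injury of the patellar groove in the study's description, whereas the titles of the same samples name DMM surgery (destabilization of the medial meniscus, another knee operation), and the label of the adult sham library covers days 3 to 14. The labels name no other allele or agent for any group. Each group was 1 pool of cartilage, from 10 injured or 5 uninjured mice, so there are no replicates. No difference below has a replicate check or a p-value, and 2-fold or more is a rule of size only.

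The clock of mammalian cells is a feedback loop of transcription. ARNTL and CLOCK form a heterodimer that binds E-box sequences and switches on the Period and Cryptochrome genes, whose proteins then block the same heterodimer. In a second loop the heterodimer activates Nr1d1 and Nr1d2, which encode the REV-ERB repressors of Arntl transcription, and it also drives Dbp, a transcription factor that passes the rhythm on to output genes. Chondrocytes hold such a clock, and loss of Arntl from chondrocytes is known to damage mouse articular cartilage. In mouse peripheral tissues Arntl peaks towards dawn, while Nr1d1, Dbp and the Period genes peak from midday to early night. The mice were kept in alternating light and dark, but the hour at which each pool was collected is not given in the sources used here. Since each group was collected as 1 pool, the hour of collection and the group cannot be told apart for any value below.

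The values are FPKM, the fragments of a gene scaled by the length of its transcript and by all mapped fragments of the library, as calculated by the authors. FPKM takes the length of a transcript into account, so that levels of different genes can be compared within a library. Ratios between libraries are log2 ratios of FPKM + 1, and the added 1 makes the ratios of weakly expressed genes smaller than those of their FPKM. The 4 libraries differed in their general level. For the 8055 genes that averaged 5 FPKM or more over the libraries, the median log2 ratio stood at −0.02 for injured against sham cartilage in young mice and 0.23 in adult mice. It was −0.29 for adult against young sham and −0.08 for adult against young injured cartilage. Ratios after median-of-ratios scaling, a single factor for each library that centres the bulk of its genes, are therefore given beside those of the deposited scale where they change what a sentence says. Depth was estimated from the regular steps of the lowest values, although only 39.3 to 43.2% of low values lay within 2% of a whole number of steps. Taking a step as 1 fragment gave about 25706900 fragments for adult injured cartilage, the lowest, and about 30816600 for adult sham cartilage, the highest. On that condition the 6 clock genes with a single annotated transcript rested on between about 225 fragments, for Cry1 in young injured cartilage, and about 11000 fragments, for Nr1d1 in adult sham cartilage. Marker genes were used to check the tissue. The summed FPKM of 9 chondrocyte genes, among them Col2a1, Acan and Comp, lay between 12414 and 16132 in the 4 libraries, and none of them was at 0. Single chondrocyte genes differed widely between the ages, however, and in adult against young sham cartilage 5 of 9 were at least 2-fold lower, where 10.6% of all genes were, and 1 was higher, where 2.66% were, with a median log2 ratio of −1.56. After median-of-ratios scaling the median was −1.17, and 5 were lower and 2 higher, where 5.55% and 5.35% of all genes were. Matn3 had 392 FPKM in the young sham library and 2.30 FPKM in the adult one, Col9a1 had 955 and 40.9 FPKM, and Comp had 1324 and 7203 FPKM. After injury 7 of 9 chondrocyte genes had lower values in young mice, with a median of −0.28, and 3 of 9 in adult mice, with a median of 0.24, or −0.04 after median-of-ratios scaling. Prg4, the lubricin gene of the cartilage surface, was at 2049, 421, 3565 and 2658 FPKM (young sham, young injured, adult sham, adult injured), the order of libraries that Dbp has below. The part of these differences in the clock gene values was not tested.

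The activator genes were the 2 members with their lowest FPKM in adult sham cartilage, which for Arntl no longer held after median-of-ratios scaling. Arntl was at 9.58 FPKM (sham) and 7.57 FPKM (injured) in young mice and at 6.40 FPKM (sham) and 7.37 FPKM (injured) in adult mice. Its highest and lowest values, both in sham cartilage, were 1.5-fold apart, the smallest range of the 10 genes. Clock was at 3.91 FPKM (sham) and 5.90 FPKM (injured) in young mice and at 2.09 FPKM (sham) and 4.29 FPKM (injured) in adult mice. It was the only member that was higher in the injured than in the sham library at both ages.

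The Period genes encode inhibitors of the ARNTL and CLOCK dimer. Per1 was at 13.4 FPKM (sham) and 6.71 FPKM (injured) in young mice and at 19.6 FPKM (sham) and 10.8 FPKM (injured) in adult mice. Per2 was at 3.20 and 1.63 FPKM in young and at 7.94 and 3.48 FPKM in adult mice, with sham before injured as in all lists of 4 values below. Both genes were thus highest in adult sham and lowest in young injured cartilage, and Per2 was the least abundant of the members in 3 of the libraries. Per3 departed from this order, with 11.8 FPKM (sham) and 4.13 FPKM (injured) in young mice and 8.74 and 5.70 FPKM in adult mice. Of the Period, Cryptochrome and REV-ERB genes it was the only one with a higher value in young than in adult sham cartilage.

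The Cryptochromes are the partners of the Period proteins in repression. Cry1 was at 3.80 FPKM (sham) and 2.84 FPKM (injured) in young mice and at 4.34 FPKM (sham) and 3.78 FPKM (injured) in adult mice, a range of 1.53-fold. Cry2 was more abundant and more variable, at 14.0, 6.71, 26.6 and 14.3 FPKM. The Cry2 values of young sham and adult injured cartilage were nearly the same.

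The genes of the REV-ERB repressors and Dbp were the most abundant members, and they filled the first 3 places in each library. Nr1d1 was at 37.6 FPKM (sham) and 16.7 FPKM (injured) in young mice and at 131 FPKM (sham) and 46.9 FPKM (injured) in adult mice, a range of 7.85-fold. Its relative Nr1d2 was at 23.7, 14.9, 28.8 and 18.9 FPKM, a range of 1.93-fold. Dbp had the widest range of the 10 genes, 14.1-fold, with 35.2 FPKM (sham) and 13.3 FPKM (injured) in young mice and 188 and 54.7 FPKM in adult mice. Nr1d1 and Nr1d2 therefore had the same highest and the same lowest library but a very different spread between them.

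**Figure D1:**
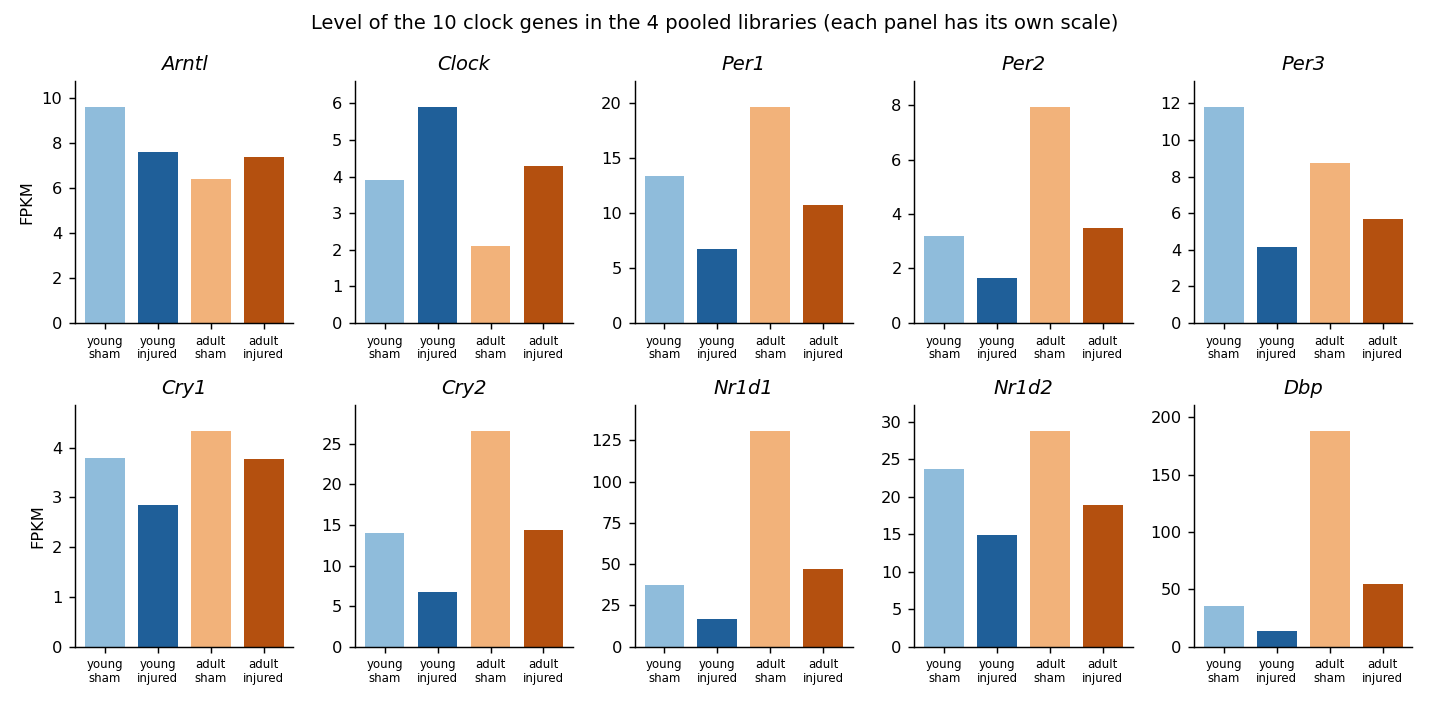
FPKM (vertical axis, starting at 0, with its own scale in each panel) of the 10 clock genes in the 4 pooled libraries, 1 bar for each library and no error bars because each group is 1 library. The adult sham bar is the tallest for 7 genes and the young injured bar the lowest for 8 genes, Arntl and Clock being the exceptions to the second pattern.

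Of the 10 members, 7 were highest in adult sham cartilage (Per1, Per2, Cry1, Cry2, Nr1d1, Nr1d2 and Dbp), and 8 were lowest in young injured cartilage (the same genes and Per3). Of the 8055 genes averaging 5 FPKM or more, 16.3% were highest in adult sham and 16.5% lowest in young injured cartilage, and after median-of-ratios scaling the shares were 35.9% and 22.6%. The first count was also 7 after median-of-ratios scaling, after quantile normalization, by which every library receives an equal set of values, and after rescaling to TPM, which gives them the same sum. The second count was 9 with quantile normalization or median-of-ratios scaling, since Arntl was then lowest in young injured cartilage too. For Per2, Cry2, Nr1d1 and Dbp the order was adult sham, adult injured, young sham and young injured. For Per1, Cry1 and Nr1d2 young sham stood above adult injured cartilage.

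In young mice, 9 of 10 members had lower values after injury, Clock being the exception, and 3 of them passed 2-fold. Dbp fell by 1.34 on the log2 scale, Per3 by 1.32 and Nr1d1 by 1.13. These were 3 of 10 members at least 2-fold lower, where 1.27% of the 18181 genes above 0 in at least 1 library were, and 0 of 10 at least 2-fold higher, where 4.57% of all genes were. The remaining lower values were −0.96 for Cry2, −0.90 for Per1, −0.67 for Per2, −0.64 for Nr1d2, −0.32 for Cry1 and −0.31 for Arntl, and Clock had 0.49. The median of the 10 genes was −0.78, beside 0.00 over all genes tested. Of the 8055 genes averaging 5 FPKM or more, whose median ratio was −0.02, 64 had a lower ratio than Dbp and 67 a lower ratio than Per3. The ratios of Cry1 and Arntl were less unusual, since 16.1% and 17.2% of these genes had lower ones. The deposited and the median-of-ratios scale differed little here, with −1.31 for Dbp, −1.29 for Per3 and −1.10 for Nr1d1 on the second.

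In adult mice the same repressor and output genes had lower values after injury, and the lowest ratios were those of Dbp and Nr1d1. Dbp fell by 1.76 and Nr1d1 by 1.46 on the log2 scale, and they were the 2 of 10 members at least 2-fold lower, where 1.46% of all genes were. None of the members was at least 2-fold higher, where 6.9% of all genes were. Per2, at −0.996, stood just short of 2-fold on this scale, although its FPKM differed 2.28-fold without the added 1. Clock, at 0.78, was likewise 2.05-fold higher without the added 1. The other members had −0.85 (Cry2), −0.81 (Per1), −0.58 (Nr1d2), −0.54 (Per3), −0.16 (Cry1) and 0.18 (Arntl). The median was −0.70, beside 0.14 over all genes tested. Relative to the general shift between the adult libraries the differences were larger. After median-of-ratios scaling Dbp had −2.04, Nr1d1 −1.73, Per2 −1.24, Cry2 −1.12 and Per1 −1.07, so that 5 of 10 members were at least 2-fold lower, where 2.50% of all genes were and 4.76% were higher. Arntl had −0.06 on that scale and thus changed sign.

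**Figure D2:**
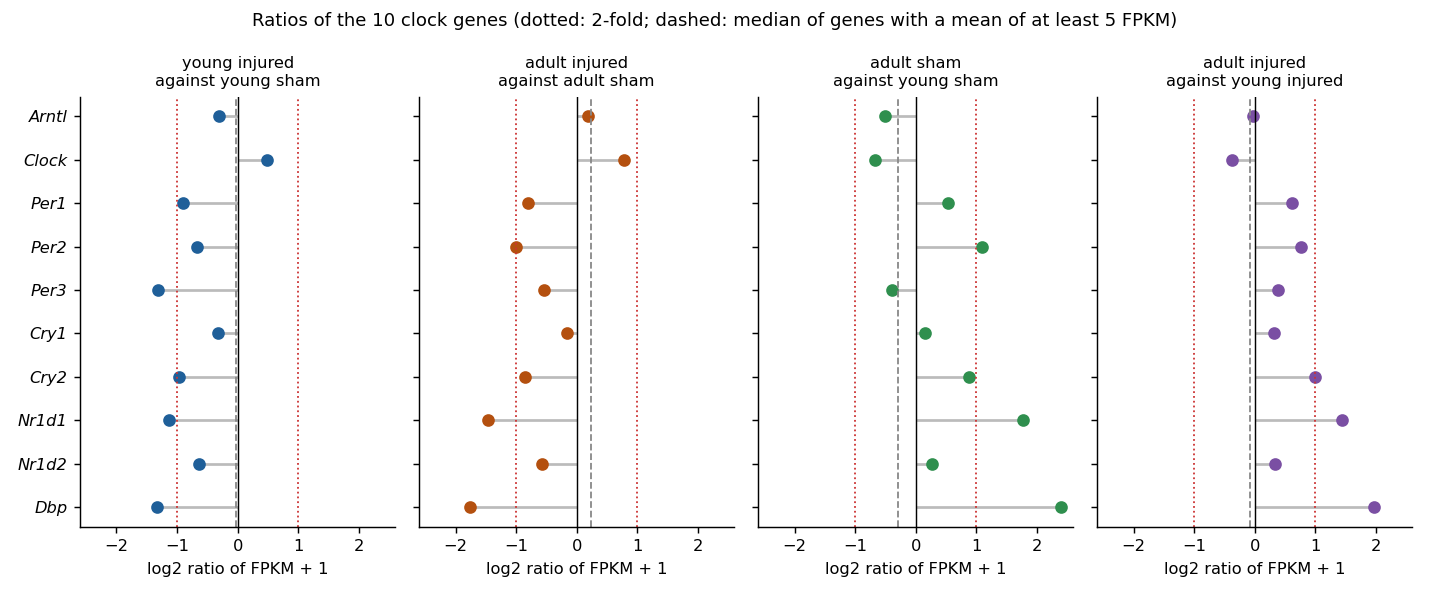
Log2 ratios of FPKM + 1 (horizontal axis) of the 10 clock genes in 4 comparisons of single libraries. Dotted lines mark 2-fold and the dashed line the median of genes averaging 5 FPKM or more. In both injury comparisons the Period, Cryptochrome and REV-ERB genes and Dbp lie left of 0 and Clock lies right of it, and Dbp, Nr1d1 and Per2 lie right of the upper 2-fold line for adult against young sham cartilage.

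The injury ratios of the ages, which rest on 4 different libraries, were set side by side. Of the 10 members, 8 were lower after injury at both ages, where 19.1% of the 8055 genes averaging 5 FPKM or more were, and 9 after median-of-ratios scaling, where 30.8% of those genes were. Dbp and Nr1d1 were at least 2-fold lower at both ages and were 2 of 50 such genes among the 8055. The difference between the ages, adult minus young, was 0.78 for Per3 on the deposited scale. It was 0.48 for Arntl and 0.29 for Clock, −0.43 for Dbp, −0.33 for Nr1d1 and −0.32 for Per2, and between 0.06 and 0.16 for Per1, Cry1, Cry2 and Nr1d2. After median-of-ratios scaling the order was another, with −0.73 for Dbp, −0.63 for Nr1d1, −0.60 for Per2, 0.50 for Per3, 0.22 for Arntl and 0.08 for Clock. Per1, Cry1, Cry2 and Nr1d2 changed sign on that scale and lay between −0.23 and −0.09. These differences have no replicate check and were not tested.

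Adult sham cartilage had more Dbp and Nr1d1 transcript than young sham cartilage by a wide margin. Dbp was higher in adult sham cartilage by a log2 ratio of 2.39, Nr1d1 by 1.77 and Per2 by 1.09, so that 3 of 10 members were at least 2-fold higher, where 2.66% of all genes were. None was at least 2-fold lower, where 10.6% of all genes were. Cry2 had 0.88, Per1 0.52, Nr1d2 0.27, Cry1 0.15, Per3 −0.40, Arntl −0.52 and Clock −0.67. Only 54 of the 8055 genes had a higher ratio than Dbp and 111 a higher ratio than Nr1d1. The median of the members was 0.40, beside −0.15 over all genes tested, and it was 0.77 after median-of-ratios scaling, with which Cry2 also passed 2-fold. On that scale 5.35% of all genes were higher and 5.55% lower, and Arntl, Clock and Per3 had −0.17, −0.39 and −0.04. This comparison and the injury comparison of adult mice share the adult sham library, so a value that is high in that pool appears in both.

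**Figure D3:**
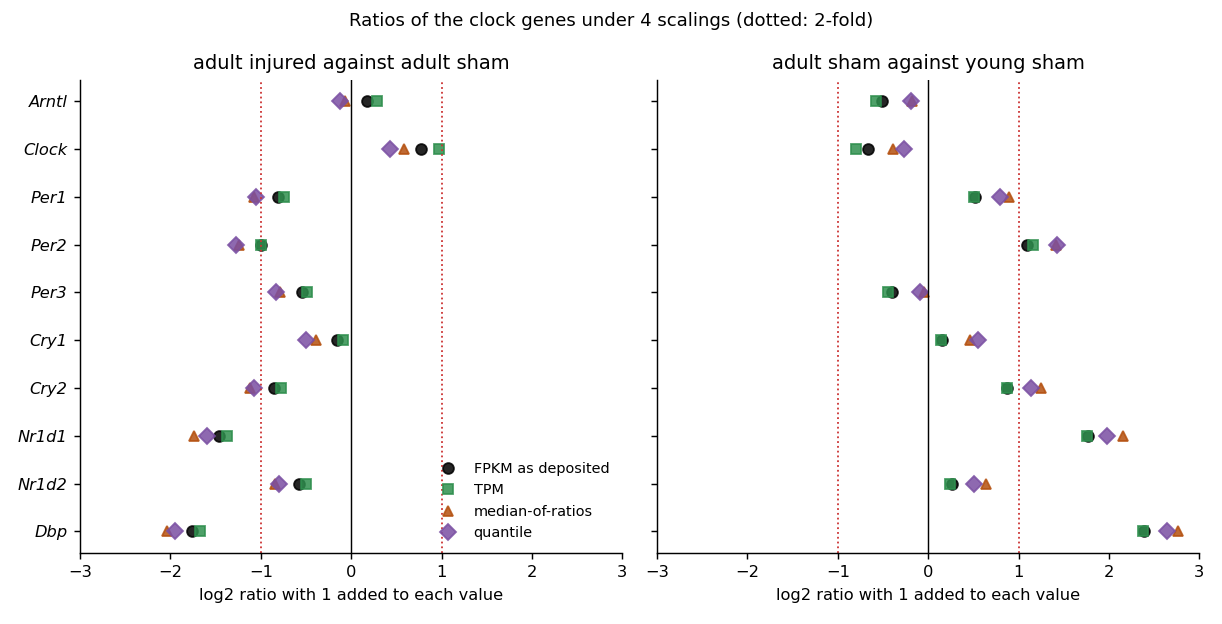
Log2 ratios (horizontal axis, with 1 added to each value) of the 10 clock genes for adult injured against adult sham (left) and adult against young sham cartilage (right), on the deposited FPKM scale and after rescaling to TPM, median-of-ratios scaling and quantile normalization. Dbp and Nr1d1 lie beyond the dotted 2-fold lines under all 4 scalings in both panels, while Arntl lies on either side of 0 in the left panel.

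The injured libraries, which share no library with the sham comparison, again had Dbp and Nr1d1 as the members that differed most between the ages. Dbp was higher in adult than in young injured cartilage by a log2 ratio of 1.96 and Nr1d1 by 1.44, which made 2 of 10 members at least 2-fold higher, where 1.8% of all genes were. None was at least 2-fold lower, where 3.09% of all genes were. Cry2 had 0.99, just short of 2-fold, and 1.06 after median-of-ratios scaling, with which 3 of 10 members were at least 2-fold higher, where 2.1% of all genes were. Per2 had 0.77, Per1 0.61, Per3 0.38, Nr1d2 0.33, Cry1 0.31, Arntl −0.03 and Clock −0.38. The median was 0.50, beside −0.04 over all genes tested. Per3 thus had opposite directions in the age comparisons, lower in adult sham and higher in adult injured cartilage than in the young library. Dbp, Nr1d1, Cry2, Per2, Per1, Cry1 and Nr1d2 were higher in the adult library of both the sham and the injured pair.

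Ratios between members of the same library do not change when that library is multiplied by any factor. The ratio of Dbp to Arntl FPKM was 3.67 and 1.76 in sham and injured cartilage of young mice and 29.4 and 7.42 in that of adult mice. It was therefore 2.09-fold higher in sham than in injured cartilage of young mice and 3.96-fold higher in adult mice. The ratio of Nr1d1 to Arntl was 3.93, 2.20, 20.5 and 6.37 in the same order. Adult sham cartilage had the highest and young injured cartilage the lowest ratio to Arntl for each of the 8 members other than Clock. The contrast was smallest for Cry1, with 0.397 and 0.376 in young sham and injured cartilage. Relative to Clock the spread was wider, and the ratio of Dbp to Clock was 8.99, 2.26, 90.2 and 12.7. Arntl and Clock had their own lowest FPKM in adult sham cartilage. Dividing by either therefore raises that library relative to the others for every gene. Per3, highest in young sham cartilage by FPKM, had its highest ratio to Arntl in adult sham cartilage. The share of all genes with the same order after division by Arntl was not counted.

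**Figure D4:**
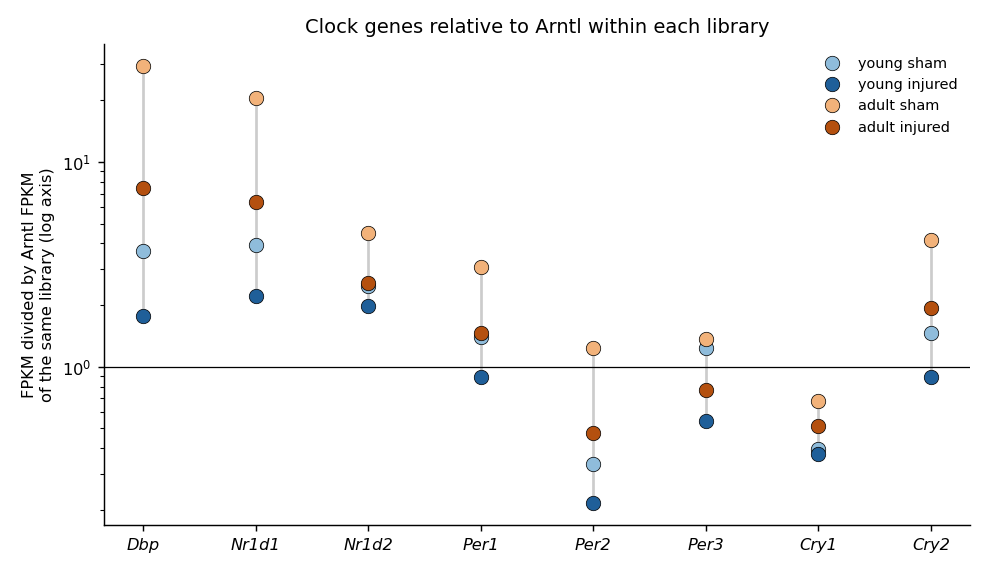
FPKM of 8 clock genes divided by the Arntl FPKM of the same library (vertical axis, logarithmic), with 1 point for each of the 4 libraries. The adult sham point is uppermost and the young injured point lowest for every gene shown, with Dbp spanning 1.76 to 29.4. Arntl itself had its lowest FPKM in adult sham cartilage, and the share of all genes with this order was not counted.

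The sequence around the start sites of the members was searched for binding sites of clock proteins. Promoter windows of 300 bases, 250 before and 50 after an annotated start, were available from RefSeq on GRCm38.p6, the assembly of mm10, for 9 of the 10 members, but not for Per2. The E-box CACGTG, which ARNTL and CLOCK bind, was in 2 of the 13 windows of these 9 genes, in Per1 and Cry1, and in 7.15% of all 32851 windows. The D-box, searched as TTATGTAA or TTACGTAA and bound by DBP, was in 1 of the 13 windows, in Per3, and in 1.06% of all windows. The site of ROR and REV-ERB proteins (RORE) was in 1 window, in Arntl, 27 bases after a start, and in 0.219% of all windows, and the cAMP response element TGACGTCA was in none of the members and in 1.79% of all windows. All were searched on both strands. The windows of Dbp, Nr1d1, Nr1d2, Cry2 and Clock held none of these letters. The 250 bases before the start are shown 5′ to 3′ on the strand of the gene, with E-boxes and D-boxes in capitals, for the members with a match there and for Ciart, a clock repressor with 3 E-boxes that is described further on. They are Per1 (chr11:69098699-69098948, plus strand, E-box 166 bases before the start), Cry1 (chr10:85185055-85185304, minus strand, E-box 60 bases before), Per3 (chr4:151044666-151044915, minus strand, D-boxes 205 and 158 bases before) and Ciart (chr3:95882229-95882478, minus strand, E-boxes 116, 58 and 44 bases before).
Per1: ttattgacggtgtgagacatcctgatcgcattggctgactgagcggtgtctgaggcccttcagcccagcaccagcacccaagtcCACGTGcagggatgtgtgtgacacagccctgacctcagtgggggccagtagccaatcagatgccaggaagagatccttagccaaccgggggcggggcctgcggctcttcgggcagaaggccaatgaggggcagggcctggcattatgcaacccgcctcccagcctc
Cry1: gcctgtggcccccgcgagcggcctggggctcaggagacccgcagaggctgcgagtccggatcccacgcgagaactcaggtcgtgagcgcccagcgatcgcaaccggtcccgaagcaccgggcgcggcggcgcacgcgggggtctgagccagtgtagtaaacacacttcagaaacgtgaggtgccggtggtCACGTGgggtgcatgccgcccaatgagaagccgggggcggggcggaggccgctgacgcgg
Per3: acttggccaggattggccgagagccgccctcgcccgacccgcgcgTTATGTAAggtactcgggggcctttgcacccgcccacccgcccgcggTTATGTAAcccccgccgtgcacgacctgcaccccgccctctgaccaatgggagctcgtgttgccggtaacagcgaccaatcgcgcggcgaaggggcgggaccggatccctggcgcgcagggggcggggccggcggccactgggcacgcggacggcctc
Ciart: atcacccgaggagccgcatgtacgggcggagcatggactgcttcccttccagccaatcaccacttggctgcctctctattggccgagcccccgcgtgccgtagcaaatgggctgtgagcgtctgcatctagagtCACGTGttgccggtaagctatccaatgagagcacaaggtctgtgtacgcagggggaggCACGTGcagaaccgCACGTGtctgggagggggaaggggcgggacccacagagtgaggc
A match describes the letters only, and the genes with the widest range, Dbp and Nr1d1, had none in these windows. Other forms of these sites, and sites outside the windows, were not searched.

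Other genes of the clock were taken from a list of 27 partners, and they were also read by the phase at which they peak in mouse tissues. Of 11 genes with a peak from day to dusk, 10 had lower values after injury at both ages, Bhlhe41 being the exception, where 17.6% of all genes tested were lower at both. Of these 10 genes 6 are members already counted above, and outside the members it was 4 of 5. The list was drawn up with earlier results known, and it does not hold every partner. Of 20 partners placed neither here nor with the dawn genes below, 5 were lower and 6 higher at both ages. Bhlhe40 and Wee1 were among those 6. After median-of-ratios scaling 8 of the 20 were lower and 4 higher, with Bhlhe40 but not Wee1 among the higher ones. The median of the 11 log2 ratios was −0.79 for young and −0.81 for adult mice, and −0.76 and −1.07 after median-of-ratios scaling. Among the 5 that are not members, Tef and Hlf encode the closest relatives of DBP. Tef was at 22.1 FPKM (sham) and 12.4 FPKM (injured) in young mice and at 40.4 FPKM (sham) and 24.6 FPKM (injured) in adult mice. Hlf was at 0.566, 0.151, 2.45 and 0.479 FPKM, and Ciart at 1.69, 1.29, 8.22 and 2.81 FPKM. Tef and Ciart thus had the order of libraries that Dbp had, and Hlf the order of Per1, so that all of them were highest in adult sham and lowest in young injured cartilage. Usp2, a deubiquitinase whose transcript follows the clock, had the order of Per3 instead, at 3.30, 1.35, 2.49 and 1.96 FPKM. Bhlhe41, a repressor of the heterodimer, was highest in adult injured cartilage, at 12.7 FPKM against 5.96 to 6.74 FPKM in the other libraries.

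Genes with a peak towards dawn other than Arntl had higher values after injury. Of the 4 genes, Clock, a member counted above, Npas2 and Nfil3 were higher at both ages, where 35.9% of all genes tested were, and the median ratio on the log2 scale was 0.30 for young and 0.61 for adult mice. After median-of-ratios scaling the medians were 0.31 and 0.41, Arntl was lower at both ages, and 30.9% of all genes tested were higher at both. Nfil3, which encodes a repressor that competes with DBP for the D-box, was at 1.35 FPKM (sham) and 3.24 FPKM (injured) in young mice and at 0.825 FPKM (sham) and 5.24 FPKM (injured) in adult mice. It was the only clock partner at least 2-fold higher after injury at either age, with 1.77 in adult mice. Npas2, a relative of Clock, was at 4.72, 5.16, 3.66 and 5.36 FPKM. All 4 dawn genes had lower values in adult than in young sham cartilage, with a median of −0.44 beside −0.15 over all genes tested. After median-of-ratios scaling this median was −0.17, and Npas2 changed sign, at 0.01. Over the whole list of 27 partners the medians were near those of all genes, −0.08 in young and 0.06 in adult injury, with 0 of 27 at least 2-fold lower in young mice, where 1.27% of all genes were, and 2 of 27, Hlf and Ciart, in adult mice, where 1.46% were. In adult against young sham cartilage 3 of 27 partners were at least 2-fold higher, Ciart with 1.78, Nampt with 1.28 and Hlf with 1.14, where 2.66% of all genes were. Ncor1, with −1.03, was the 1 partner at least 2-fold lower, where 10.6% of all genes were. After median-of-ratios scaling Ncor1 had −0.68 and was no longer past 2-fold, and Tef, with 1.22, was then also at least 2-fold higher.

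**Figure D5:**
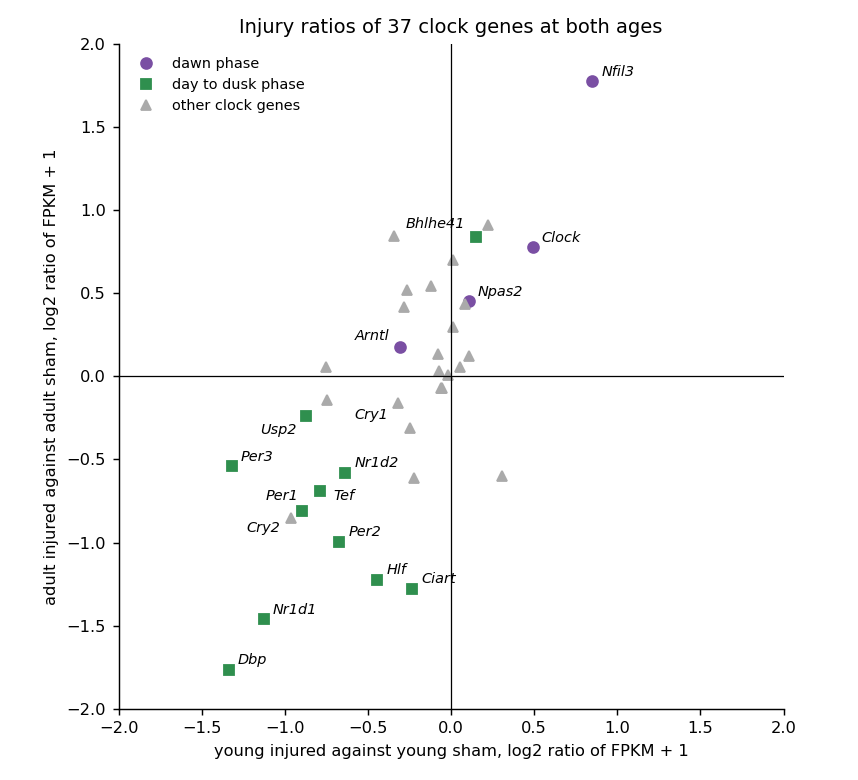
Log2 ratios of FPKM + 1 for injured against sham cartilage in young (horizontal axis) and adult mice (vertical axis), for the members and their clock partners, with 1 point for each gene. Genes that peak from day to dusk (squares) lie in the lower left except Bhlhe41, genes that peak towards dawn (circles) lie above the horizontal zero line, and the other clock genes (triangles) lie on both sides of both zero lines, with Cry2 in the lower left at −0.96 and −0.85.

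The kinase genes Csnk1d and Csnk1e, whose products phosphorylate PER proteins, had log2 ratios of −0.08 and −0.74 after injury in young mice and 0.14 and −0.14 in adult mice. Rora encodes an activator of Arntl that competes with the REV-ERB proteins. Rora was at 5.92 FPKM (sham) and 3.11 FPKM (injured) in young mice and at 4.17 FPKM (sham) and 4.37 FPKM (injured) in adult mice. Its relative Rorb was listed at 0 or below 0.02 FPKM in each library. Nampt, a metabolic enzyme gene that the clock drives, was at 8.97, 11.3, 23.2 and 14.9 FPKM, highest in adult sham cartilage like Dbp but not lower after injury in young mice.

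Marker genes of other tissues moved with some of these values. The summed FPKM of 8 skeletal muscle genes was 586 and 580.3 in sham and injured cartilage of young mice and 1289 and 380.3 in that of adult mice. All 8 were higher in adult than in young sham cartilage, 4 of them at least 2-fold, where 2.66% of all genes were. The part of muscle in the clock gene values was not tested. The sum of 8 macrophage genes was 181 and 1773 FPKM in young sham and injured cartilage and 300.4 and 1549.7 FPKM in adult cartilage. All 8 genes were at least 2-fold higher after injury at both ages, where 4.57% of all genes were in young and 6.9% in adult mice. The sum of 5 endothelial genes was 14.4, 72.9, 16.5 and 60.6 FPKM, and that of 4 fibroblast genes 1817, 5058, 1979.8 and 7299 FPKM in the order used above. The share of these cells in the lower clock gene values of injured cartilage was not tested, and in pooled tissue fewer cells of a type and less RNA per cell cannot be told apart. The sum of 3 adipocyte genes was 34.9, 51.4, 32.2 and 38.4 FPKM, most of it from Fabp4. Adipoq, highest in adult sham cartilage at 4.54 FPKM, was lower after injury at both ages. So was Plin1, though at only 0.632, 0.351, 0.361 and 0.193 FPKM. The sums of erythroid genes (9633, 18397, 6949.8 and 3027 FPKM), osteoblast genes (809, 1506, 5746 and 6219 FPKM) and neutrophil genes (1224, 2492, 1619 and 1950.2 FPKM) did not follow the order of the clock genes.

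The genes whose pattern was most like that of Dbp and Arntl were looked up among 7965 genes outside the lists that averaged 5 FPKM or more. The measure was the root mean square difference of log2(FPKM + 1), centred on each gene's mean over the 4 libraries. The nearest to Dbp were Prelp, a cartilage matrix proteoglycan, at 0.17, Htra4 at 0.20, the muscle oxygen carrier gene Mb at 0.30, Gpld1 at 0.36, and Ihh, the hedgehog ligand of prehypertrophic chondrocytes, at 0.36. Prelp was at 111 FPKM (sham) and 44.0 FPKM (injured) in young mice and at 462 FPKM (sham) and 183 FPKM (injured) in adult mice. Only 2 genes lay within 0.25 of Dbp. The nearest to Arntl were Ephb4, Atp11b, Fbxo42, Telo2 and Dstyk. Because Arntl itself varied little, 3394 genes lay within 0.25 of it, and this count shows no shared pattern. A likeness over 4 libraries is a description only.

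Positions and neighbours of the members were taken from RefSeq on GRCm38.p6. Dbp lies on chromosome 7 from 45705100 to 45710203 on the plus strand, and 741 of its bases overlap Sphk2 on the other strand. Nr1d1 lies on chromosome 11 from 98767932 to 98775377 on the minus strand and overlaps Thra by 1075 bases. The libraries were strand-specific, but whether the values were counted by strand is not given in the sources used here, and reads of an overlap could then count for either gene. Of the 31-base words of their transcripts, 16.9% for Dbp and 7.85% for Nr1d1 also occur in another gene on either strand, most often in these neighbours. Sphk2 was at 5.05 FPKM (sham) and 5.58 FPKM (injured) in young mice and at 5.58 FPKM (sham) and 8.15 FPKM (injured) in adult mice and did not follow Dbp. Thra was at 39.6, 28.0, 59.9 and 33.3 FPKM, in the order of libraries of Nr1d1 apart from young sham and adult injured, but with smaller log2 ratios of −0.49 and −0.83 after injury. Shared words made up 9.51% for Nr1d2, 4.11% for Cry2 and at most 0.652% for the other members, with 0 for Per1, Per2 and Cry1.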

How the data were processed

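Cartilage RNA of 4 pools, sham and injured at each of the ages young and adult, was sequenced in paired ends from poly-A selected, strand-specific libraries. The authors deposited FPKM for 24532 genes on mm10. The submitters' processing notes name HISAT2 2.1.0, StringTie 1.3.4d, STAR and SAMtools without their roles. Each column was matched to its library by name. Since FPKM are relative to all mapped fragments of a library, a few very abundant genes can shift all its other values.

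Log2 ratios of FPKM + 1 were calculated for 4 pairs of libraries, and 2-fold was used as the limit of size. With 1 library per group no test, standard deviation or p-value was calculated. Shares of all genes refer to the 18181 genes above 0 in at least 1 library. As alternatives, 0.1 or 5 FPKM was added in place of 1, and values were recalculated with TPM, median-of-ratios scaling over genes of at least 1 FPKM in all libraries, quantile normalization, thresholds of 1.5-fold and 3-fold, and a filter of at least 1 FPKM. The scripts were tested on simulated data.

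The members and lists were chosen with earlier results of these data known. Named were the members, genes of the clock partner list, up to 4 genes of each other list with the largest ratios, the 5 genes most like Dbp and Arntl, and genes that overlap a member. Sphk2 and Thra are of the last kind, and Col2a1, Acan and Tsc22d3 were named outside this rule, after their values were seen. The rule asked for a mean of at least 1 FPKM in these other lists, and Plin1, with a mean of 0.384 FPKM, was also named outside it. Marker lists covered chondrocytes, skeletal muscle, macrophages, neutrophils, erythroid cells, osteoblasts, endothelium, adipocytes and fibroblasts. The 4 rows whose symbols a spreadsheet had turned into dates kept their gene identifier. Calculations used Python 3.11.15, numpy 2.4.6 and pandas 2.3.3, and plots matplotlib 3.10.9.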

Additional observations from a re-analysis of the deposited data

Results flagged for a closer look

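Arntl had opposite directions after injury at the 2 ages. Its level was lower in young injured than in young sham cartilage, with a log2 ratio of −0.31, and higher in adult mice, with 0.18, which made a difference of 0.48, adult minus young. Each direction rests on 1 library against 1 library, and the difference was not tested. After median-of-ratios scaling the adult value was −0.06 and both ages had the same direction.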

How the results depend on the processing

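Of 200 values, the log2 ratios of 10 members in 4 comparisons under the 5 alternative pseudocounts and scalings, 172 kept their direction and their side of 2-fold. A further 20 passed 2-fold and 3 fell below it, and no member that had passed 2-fold changed direction. The 5 values that changed sign were those of Arntl, whose ratio ran from −0.12 to 0.28 in adult injury and from −0.04 to 0.14 between the injured libraries. In young injury 3 members had passed 2-fold, against 1 with a pseudocount of 5 FPKM, 5 on the TPM scale, 7 at 1.5-fold and 0 at 3-fold. On the TPM scale all 5 were lower, as were 2.37% of all genes. In adult injury 2 had passed, both lower, against 4 with a pseudocount of 0.1 FPKM (3 lower and Clock higher), 5 after quantile normalization or median-of-ratios scaling, 6 at 1.5-fold (5 lower and Clock higher) and 1 at 3-fold. The median there was −0.94 after quantile normalization and −0.96 after median-of-ratios scaling. Of all genes, 2.69% and 2.50% were at least 2-fold lower after these scalings, in the same order. Between the shams 3 had passed, all higher, against 5 at 1.5-fold (4 higher and Clock lower), and the median was 0.77 after median-of-ratios scaling and 0.67 after quantile normalization. Between the injured libraries 2 had passed, against 4 with a pseudocount of 0.1 FPKM or on the TPM scale, 5 at 1.5-fold and 1 at 3-fold, and the median on the TPM scale was 0.70. On the TPM scale all 4 were higher, as were 3.44% of all genes. Shares of all genes at 1.5-fold, at 3-fold and with the other pseudocounts are not given, so those counts have nothing to be read against. With a filter of at least 1 FPKM in at least 1 library, 8.02%, 11.5%, 18.3% and 6.73% of genes were at least 2-fold different in these comparisons, in place of 5.83%, 8.37%, 13.3% and 4.89%. No paired analysis was possible because each group is 1 library. The limits are the missing replicates, the unknown hour of collection, the label of days 3 to 14 and the high muscle sum of the adult sham pool, and titles that name another operation.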

Other observations

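Genes that respond to glucocorticoids, hormones that also act on Per1, had no common direction after injury. Of 10 such genes, 3 had lower values at both ages and 4 had higher values at both, or 3 and 3 after median-of-ratios scaling. Of all genes tested, 17.6% were lower and 35.9% higher at both ages, or 26.0% and 30.9% after scaling. Cebpd was at 3.61 and 7.91 FPKM in sham and injured cartilage of young mice and at 4.88 and 23.6 FPKM in that of adult mice. Fkbp5 was at 3.41 FPKM in young sham cartilage and at 10.5 and 6.40 FPKM in sham and injured cartilage of adult mice, so that it was highest in adult sham cartilage as Dbp was, with a log2 ratio of 0.44 after injury in young mice. Hsd11b1 was instead lowest in adult sham cartilage, at 5.48, 4.33, 1.08 and 2.32 FPKM. Errfi1 was highest in adult injured cartilage, at 41.3, 27.3, 47.3 and 71.1 FPKM. Tsc22d3, chosen after its values were seen, was at 60.1, 30.3, 81.8 and 46.2 FPKM, the order of libraries that Per1 had.

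Immediate early and cAMP-responsive genes, a class to which Per1 also belongs, did not all have 1 direction. Of 10 such genes, 3 had lower and 2 had higher values after injury at both ages, and after median-of-ratios scaling 6 had lower and 2 had higher values, beside the same shares of all genes. Nr4a1 was at least 2-fold lower after injury at both ages, at 34.4 FPKM (sham) and 4.88 FPKM (injured) in young mice and at 39.8 FPKM (sham) and 9.45 FPKM (injured) in adult mice. Junb was at least 2-fold higher at both ages, at 5.16, 24.7, 15.8 and 57.9 FPKM. Dusp1 was at 39.8, 18.9, 180.4 and 95.1 FPKM and Egr1 at 15.7, 7.09, 35.4 and 19.1 FPKM. Both had the order of libraries that Dbp had, and the 10 genes of this list had a median log2 ratio of 0.79 for adult against young injured cartilage, beside 0.50 for the 10 clock genes and −0.04 over all genes tested.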
